A study of Macaca mulatta with 6 samples.

Results

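Retinoic acid, the active form of vitamin A, is handled in cells by a small set of binding proteins, nuclear receptors and enzymes, and 9 genes of that set were followed here in rhesus monkey induced pluripotent stem cells (iPSCs). The genes were CRABP1, CRABP2, RARA, RARB, RARG, RXRA, ALDH1A2, DHRS3 and CYP26A1, picked by symbol out of 30246 gene rows, with 1 row each. They were chosen with the naive against primed differences of these same libraries known, so the naive against primed values of these 9 genes are a description without a test. RNA came from 6 iPSC libraries in 3 groups of 2: female naive, male naive and male primed lines. The study's title names rhesus fibroblasts as the source of the naive lines, while the labels call the developmental stage embryo. All 4 naive lines were kept in a medium called 6SM, with 15% serum replacement, N2 supplement, 4 ng/ml bFGF, 10 ng/ml LIF and the inhibitors CHIR99021 (of GSK3, 3 µM), PD0325901 (of MEK, 0.5 µM), SB203580 (of p38, 10 µM) and SP600125 (of JNK, 10 µM). The 2 primed lines were kept in a medium called hESM, with 20% serum replacement and bFGF. Feeder cells were removed before RNA extraction. Donors are not given for the lines, and no female primed line was analysed here, so sex and state cannot be told apart in the female naive libraries when these are set against the primed ones. Between female and male naive lines, sex cannot be told apart from donor, line or sequencing depth.

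Retinol enters the cell, is oxidised to retinaldehyde and then to retinoic acid by retinaldehyde dehydrogenases such as ALDH1A2. DHRS3 reduces retinaldehyde back to retinol, and CYP26A1 oxidises retinoic acid to inactive products, so both limit the supply. CRABP1 and CRABP2 bind retinoic acid in the cytoplasm, and the retinoic acid receptors (RARs) bind it in the nucleus as partners of retinoid X receptors (RXRs). RARB, CYP26A1 and DHRS3 are themselves known to be induced by retinoic acid, and in pluripotent cells retinoic acid is known as a signal for differentiation and for the expression of anterior HOX genes.

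Levels are given in FPKM, a fragment count scaled to transcript length and library size, and can be compared between genes because they are per length. The fragments behind a value were estimated from the deposited error bounds and are called effective fragments. They summed to 8294782 and 10013491 in female naive lines, to 1754857 and 1478692 in male naive lines and to 9970137 and 7607125 in primed lines, so low genes are measured least precisely in male naive lines. The pluripotency genes POU5F1 and SOX2 were at 85.3 FPKM or more in every library. POU5F1 was at 738 and 1160 FPKM in female naive, 536 and 571 FPKM in male naive and 135 and 109 FPKM in primed lines. NANOG was at 73.8 and 95.9 FPKM in female naive, 28.7 and 30.7 FPKM in male naive and 0.933 and 2.09 FPKM in primed lines. Of 6 tested pluripotency markers, 4 rose in naive lines (POU5F1, NANOG, DPPA4 and TDGF1) and 0 fell, where 6.72% of all tested rows rose. In female against male naive lines 3 of the 6 rose (NANOG, DPPA4 and TDGF1) and 0 fell, where 0.76% of all rows rose. Of 9 tested neural markers, 4 fell in naive lines, where 4.59% of all tested rows fell (MAP2, NCAM1, ZNF521 and POU3F2, limma with Benjamini-Hochberg adjustment). The 9 summed to 33.8 and 30.5 FPKM in female naive lines and 90.4 and 82.1 FPKM in male naive lines, against 140.7 and 123 FPKM in primed lines, the same order of groups as for CRABP1 and CRABP2. This sum leaves out NES, the most abundant neural marker, which has a failed estimate in female naive 2. NES was at 166 FPKM in female naive 1 and 244 and 229 FPKM in male naive lines, against 165 and 170 FPKM in primed lines. Over all 13 neural markers found, male naive lines summed to 311 to 335 FPKM, above the 294 to 309 FPKM of primed lines. The order of male naive and primed lines thus depends on leaving out NES. NEUROG2 was listed at 0 in all naive lines, and GFAP stayed at or under 0.118 FPKM in all 6 libraries. Of 14 tested fibroblast and feeder markers 1, VIM, fell in naive lines, a share near that of all rows. The 16 found summed to 1385 to 2105 FPKM in female naive, 2026 to 2348 FPKM in male naive and 1250 to 1757 FPKM in primed lines. TAGLN and VIM were the largest parts of this sum, which hides differences between the primed libraries. COL1A1 was at 9.24 FPKM in primed 1 and 135 FPKM in primed 2, COL3A1 at 0.414 and 28.6 FPKM, and LUM at 0.111 and 19.9 FPKM. All others of the 16 were also higher in primed 2, except VIM, PDGFRA and PDGFRB, which were higher in primed 1. Of 6 tested mesoderm markers, 2 rose, where 6.72% of all rows rose, and 1 fell. Of 8 tested endoderm markers limma called 0, where it called 11.3% of all rows. An unadjusted limma p under 0.05 was reached by 1 of the 8 (AFP) and by 4235 of all 13685 tested rows. The 8 summed to 89.6 and 21.2 FPKM in female naive lines and 35.1 and 37.1 FPKM in male naive lines, against 39.5 and 36.9 FPKM in primed lines. The part of other cell types in the retinoid values was not tested, and in bulk RNA fewer cells of a type and less RNA per cell cannot be told apart.

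CRABP2 was the most abundant member in every library and CRABP1 the next in male naive and primed libraries, and both binding proteins were lower in every naive library than in either primed library. CRABP1 (ENSMMUG00000009393, chromosome 7, 57382094 to 57390538) was at 10.9 and 20.4 FPKM in female naive and 60.7 and 54.6 FPKM in male naive lines, against 408 and 634 FPKM in primed lines. The groups did not overlap, and the naive mean was 14.2-fold lower than the primed mean. The log2 difference, on the log2(FPKM + 1) scale used throughout, was -4.06 (SE 0.28) for all naive lines, -5.00 (SE 0.32) for female naive and -3.12 (SE 0.32) for male naive lines against the same 2 primed lines. In the ranking of all 13685 tested rows by FPKM, CRABP1 stood at percentile 50.2 and 67.5 in female naive lines and 87.2 and 85.7 in male naive lines, against 98.5 and 98.8 in primed lines. An unnamed row of 472 bp inside the CRABP1 span (ENSMMUG00000009395) followed the same order, at 0.507 and 1.04 FPKM in female naive lines and 10.6 and 9.92 FPKM in male naive lines, against 26.7 and 38.2 FPKM in primed lines; whether it is a separate transcript was not tested.

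CRABP2 (ENSMMUG00000002295, chromosome 1, 135308563 to 135314045), which carries retinoic acid to the nuclear receptors, was high in all groups. It was at 293 and 313 FPKM in female naive and 574 and 687 FPKM in male naive lines, against 1046 and 806 FPKM in primed lines. It stayed at or above percentile 97.7 of the tested rows in every library. Its log2 difference between all naive and primed lines was -1.07 (SE 0.15), with -1.60 for female and -0.55 for male naive lines. Because CRABP1 differed more than CRABP2, the make-up of the pair differed. CRABP1 gave 3.59% and 6.11% of the summed FPKM of both genes in female naive lines, 9.57% and 7.37% in male naive lines, and 28.0% and 44.0% in primed lines.

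**Figure D1:**
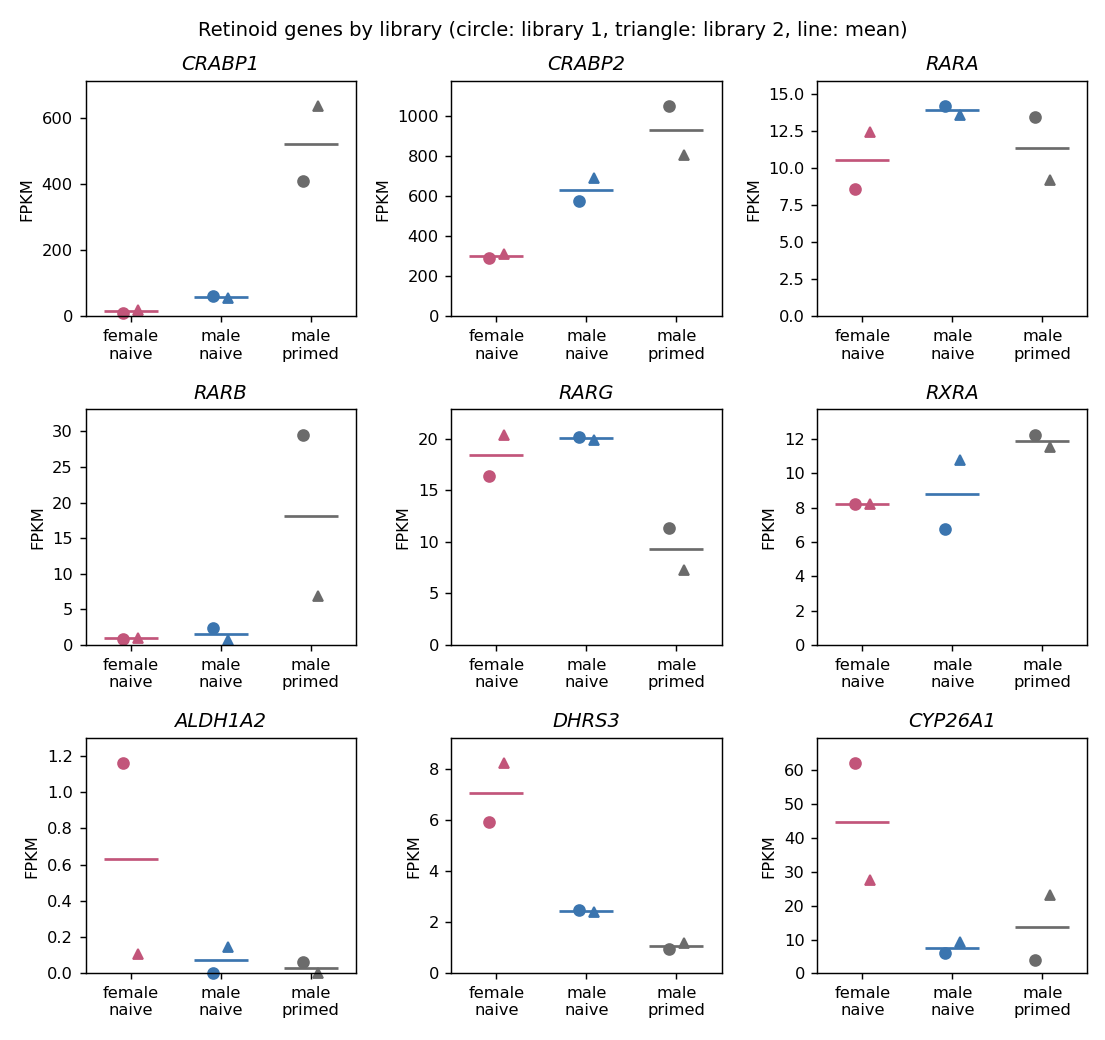
FPKM of the 9 retinoid genes (1 panel each, axis from 0) in female naive, male naive and male primed iPSC lines. Each point is 1 library and each line the mean of 2; CRABP1, CRABP2 and RARB were lowest in the naive groups, RARG and DHRS3 highest there, and RARB and CYP26A1 differed widely between the 2 primed libraries.

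Among the 3 RARs, RARB was lower and RARG higher in all naive lines than in either primed line, while RARA overlapped between the states. RARB (ENSMMUG00000007367, chromosome 2, 167653883 to 168080230), the receptor best known as a retinoic acid target, was at 0.877 and 0.982 FPKM in female naive and 2.34 and 0.694 FPKM in male naive lines, against 29.5 and 6.80 FPKM in primed lines. The naive values rested on few effective fragments, 14 and 19 in female naive and 8 and 2 in male naive libraries, against 571 and 103 in primed libraries. The log2 difference was -2.85 (SE 0.57). It was -1.87 without primed 1 and -3.83 without primed 2, since the 2 primed libraries were themselves far apart.

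RARG (ENSMMUG00000022017, chromosome 11, 50272773 to 50294345), the receptor widely expressed in early embryonic cells, was at 16.4 and 20.4 FPKM in female naive and 20.2 and 19.9 FPKM in male naive lines, against 11.3 and 7.22 FPKM in primed lines. The naive mean was 2.07-fold higher, and the log2 differences of female naive (0.94) and male naive lines (1.06) were close to that of all naive lines (1.00, SE 0.21). RARA (ENSMMUG00000012486, chromosome 16, 50429877 to 50478526), the most broadly expressed receptor, was at 8.63 and 12.5 FPKM in female naive and 14.2 and 13.6 FPKM in male naive lines, against 13.5 and 9.20 FPKM in primed lines. Its groups overlapped and its log2 difference was 0.10 (SE 0.22), with a sign that changed with upper-quartile scaling (-0.01). RXRA (ENSMMUG00000008183, chromosome 15, 3858981 to 3897856), the partner of the RARs, was at 8.25 and 8.20 FPKM in female naive and 6.75 and 10.8 FPKM in male naive lines, against 12.3 and 11.6 FPKM in primed lines. Its groups did not overlap, but the highest naive value lay close to the lower primed one (log2 difference -0.46, SE 0.21).

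These values gave the states a different mix of receptors. RARG made up 63.3% and 60.3% of the summed RAR FPKM in female naive and 55.0% and 58.2% in male naive lines, against 20.9% and 31.1% in primed lines. RARB made up 3.39% and 2.90% in female naive and 6.37% and 2.03% in male naive lines, against 54.3% and 29.3% in primed lines. The summed RAR level overlapped between the states, at 25.9 and 33.8 FPKM in female naive lines and 36.7 and 34.2 FPKM in male naive lines, against 54.4 and 23.2 FPKM in primed lines. Thus primed 1, with RARB as its main receptor, had the highest sum and primed 2 the lowest.

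**Figure D2:**
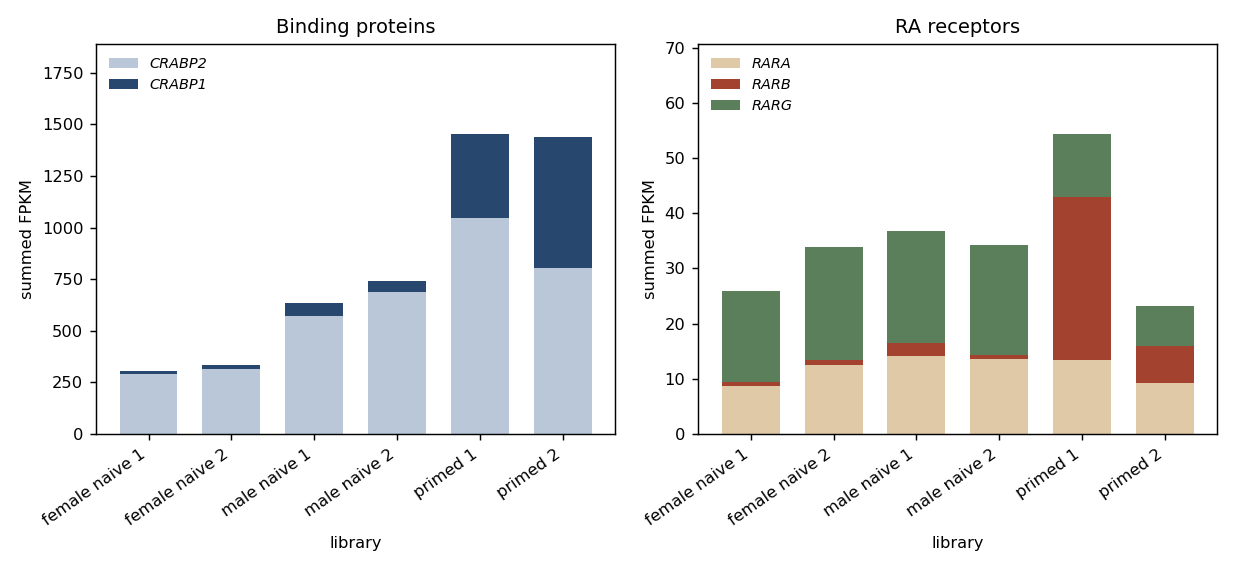
Stacked FPKM per library of CRABP1 and CRABP2 (left) and of the 3 RARs (right), from axes that start at 0. CRABP1 formed 3.59% to 9.57% of the binding protein pair in naive libraries and 28.0% and 44.0% in primed ones, and RARB formed 54.3% of the RAR sum in primed 1 and 29.3% in primed 2.

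Of the enzymes, only DHRS3 had naive and primed values that did not overlap. ALDH1A2 (ENSMMUG00000019504, chromosome 7, 36286693 to 36352774), which makes retinoic acid, was at 1.16 and 0.107 FPKM in female naive lines, at 0.144 FPKM in male naive 2, at 0.0644 FPKM in primed 1, and listed at 0 in male naive 1 and primed 2. Only female naive 1 passed 1 FPKM, on 24.3 effective fragments, so ALDH1A2 did not pass the filter on low values (1 FPKM in at least 2 libraries) and has no fitted difference. Female naive 1 also had the highest level of CYP26A1. Of the endoderm markers, SOX17 (8.57 FPKM), FOXA2 (7.59 FPKM), GATA4 (6.72 FPKM), GATA6 (5.62 FPKM) and CXCR4 (53.6 FPKM) were highest there too. The other endoderm markers found peaked elsewhere. FOXA1 (4.88 FPKM) and TTR (6.32 FPKM) were highest in primed 2, and AFP (8.15 FPKM) and HNF4A (0.645 FPKM) in male naive 1. Any part of endoderm cells in the enzyme values was not tested. The related dehydrogenases ALDH1A1 and ALDH1A3, chosen after their values were seen, also failed the filter: ALDH1A1 reached 4.11 FPKM in female naive 1 and stayed under 1 FPKM in the other 5 libraries, and ALDH1A3 stayed under 1 FPKM in all 6.

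DHRS3 (ENSMMUG00000005681, chromosome 1, 15686951 to 15741668), the retinaldehyde reductase, was at 5.92 and 8.25 FPKM in female naive and 2.49 and 2.42 FPKM in male naive lines, against 0.962 and 1.18 FPKM in primed lines. The groups did not overlap. The log2 difference was 1.35 (SE 0.22), with 1.95 for female naive lines and 0.74 for male naive lines. DHRS3 rested on 122 and 206 effective fragments in female naive and 11 and 9 in male naive libraries, against 24 and 23 in primed libraries. CYP26A1 (ENSMMUG00000010881, chromosome 9, 92517014 to 92534526), which clears retinoic acid, was at 62.0 and 27.6 FPKM in female naive and 5.94 and 9.16 FPKM in male naive lines, against 3.96 and 23.2 FPKM in primed lines. Its naive and primed values overlapped, and its log2 difference of 0.79 (SE 0.65) changed sign without primed 1 (-0.36) and for male naive lines alone (-0.38). In primed 1, CYP26A1 was at its lowest and RARB at its highest level of all 6 libraries. The CYP26A1 row spans 17513 bp, no row of the files is named CYP26C1, and CYP26C1 is the direct neighbour of CYP26A1 in RefSeq's table of the rhesus assembly T2T-MMU8v2.0; whether the row also takes in CYP26C1 reads was not tested.

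Of the 9 genes, 8 passed the filter. Of these, 6 reached 1 FPKM in all 6 libraries, DHRS3 in 5, and RARB in 3 (male naive 1 and both primed). Across the naive against primed contrast, 6 of the 8 did not overlap between the states, 2 higher and 4 lower in naive lines, where 34.8% of all tested rows did not overlap. In the fit over all rows 5 of the 8 were past an adjusted p of 0.05, RARG and DHRS3 higher and CRABP1, CRABP2 and RARB lower, where 11.3% of all rows were. Since this contrast entered the choice of the genes, nothing is read from these counts. The median log2 difference was -0.18 over the 8 genes and 0.035 over all tested rows.

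**Figure D3:**
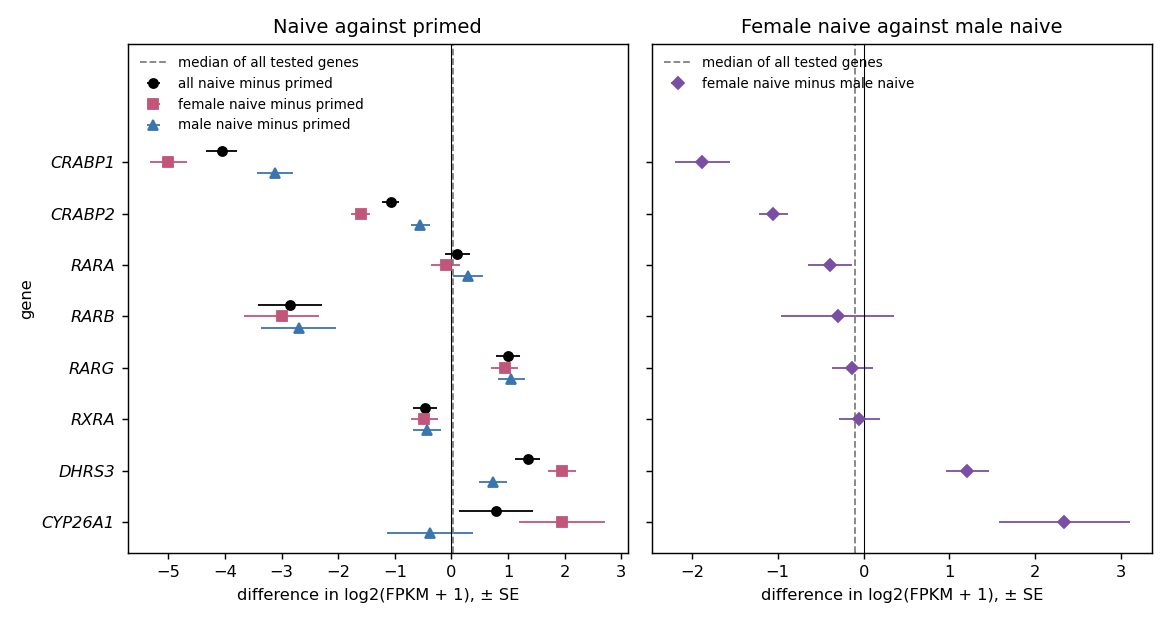
Differences in log2(FPKM + 1) with standard errors for the 8 retinoid genes that passed the filter, naive minus primed (left, all naive lines and each sex) and female minus male naive (right). CRABP1 lay at -4.06 and RARG at 1.00 in the left panel, and CRABP1 at -1.88 and CYP26A1 at 2.34 in the right one; dashed lines give the median of all tested genes.

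Female naive lines had less of both binding proteins than male naive lines in the same medium. The genes were chosen with naive against primed differences known, which use these same naive libraries. This comparison is therefore not fully independent of the choice. CRABP1 fell by 1.88 on the log2 scale (SE 0.32, limma with Benjamini-Hochberg adjustment, adjusted p = 0.0387), a mean of 15.6 ± 6.69 FPKM in female naive and 57.7 ± 4.32 FPKM in male naive lines (SD, n = 2 each). CRABP2 fell by 1.05 (SE 0.17, limma adjusted p = 0.0348), with means of 303 ± 14.0 FPKM in female naive and 630 ± 79.8 FPKM in male naive lines. Both female libraries lay below both male libraries for either gene. The enzymes pointed the other way without passing the threshold: the log2 difference was 1.21 for DHRS3 (SE 0.25, limma adjusted p = 0.0631) and 2.34 for CYP26A1 (SE 0.76, limma adjusted p = 0.153), and both female libraries lay above both male libraries. RARA, RARB, RARG and RXRA had log2 differences of -0.39, -0.30, -0.13 and -0.05, with limma adjusted p of 0.436 to 0.929, and those of RARG and RXRA were positive with upper-quartile (0.02 and 0.09) and median-of-ratios scaling (0.02 and 0.08).

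Thus 2 of 8 tested members were called in this comparison, where limma called 3.31% of all tested rows. An unadjusted limma p under 0.05 was reached by 4 of the 8 and by 2963 of all 13685 tested rows. The groups of 5 of the 8 did not overlap, where 57% of all rows did not, a share near the background: 2 of the 8 lay higher in female naive lines, where 19.4% of all rows did, and 3 lower, where 37.6% did. The median of all tested rows was -0.104 in this comparison and 0.032 after upper-quartile scaling. With that scaling the adjusted p was 0.0613 for CRABP1 (log2 difference -1.73) and 0.0528 for CRABP2 (-0.90), and with median-of-ratios scaling 0.0569 and 0.0576. Without female naive 1, female naive 2, male naive 1 or male naive 2 neither gene was called (limma adjusted p of 0.129, 0.0873, 0.186 and 0.174 for CRABP1), with 3 or 4 members at an unadjusted p under 0.05 each time. Over all 14 alternatives the log2 difference stayed between -2.30 and -1.46 for CRABP1 and between -1.18 and -0.90 for CRABP2.

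Beyond the 9 genes, 46 further genes of retinoid uptake, storage, conversion, binding and coregulation were found in the files, and 29 passed the filter. In naive against primed lines limma called 3 of the 29, where 11.3% of all rows were called: 1 rose and 2 fell, with a median log2 difference of -0.14. RDH11, a retinaldehyde reductase, was at 39.0 and 41.0 FPKM in female naive and 32.5 and 32.6 FPKM in male naive lines, against 20.1 and 22.7 FPKM in primed lines, and rose by 0.73 (SE 0.12, limma adjusted p = 0.0204). STRA6, the cell-surface receptor for retinol uptake, was at 7.58 and 6.43 FPKM in female naive and 13.0 and 15.6 FPKM in male naive lines, against 18.6 and 19.0 FPKM in primed lines, and fell by 0.84 (SE 0.16, limma adjusted p = 0.0276). All naive libraries lay on one side of both primed libraries for these genes.

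In female against male naive lines limma called 1 of the 29, where 3.31% of all rows were called, and the median log2 difference was 0.08. The most abundant genes of the list that were not called in either comparison were FABP5, a fatty acid-binding protein that also binds retinoic acid, ADH5, an alcohol dehydrogenase, and NCOR1, a corepressor of unliganded receptors. FABP5 was at 389 and 233 FPKM in female naive and 325 and 305 FPKM in male naive lines, against 135 and 249 FPKM in primed lines. NCOR1 ran between 34.6 and 43.2 FPKM over all 6 libraries. In the fit to all 6 libraries, 9 of the 29 had an unadjusted limma p under 0.05 in naive against primed lines. So did 4235 of all 13685 tested rows. In female against male naive lines 4 of the 29 did, and 2963 of all 13685 rows. In naive against primed lines none of the 29 was called without female naive 1, female naive 2, male naive 1, male naive 2 or primed 1, with 6 to 10 at an unadjusted p under 0.05. In female against male naive lines none was called without any 1 of the 4 naive libraries, with 3 to 5 at an unadjusted p under 0.05.

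Of 17 further genes of the list that failed the filter, 15 stayed under 1 FPKM in every library. CYP26B1, a relative of CYP26A1 chosen after its values were seen, ran between 0.0575 and 0.372 FPKM.

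Genes known to respond to retinoic acid were mostly lower in naive lines. Of 21 tested genes of this list, 8 fell and 2 rose in naive against primed lines, where 4.59% of all rows fell and 6.72% rose, and the median log2 difference was -0.74, against 0.035 over all rows. Of the 21 genes, 4 reached 1 FPKM only in primed libraries and so passed the filter through the group where they were high. They include 3 of the 8 falls, HOXA3 and TSHZ1 among them, and they enter the counts and the median. The list was chosen with earlier results of these data known, so its counts here and below are a description. HOXA2, a hindbrain HOX gene, was at 0.394 and 0.130 FPKM in female naive and 1.47 and 1.31 FPKM in male naive lines, against 14.6 and 11.7 FPKM in primed lines (log2 difference -3.02, SE 0.22, limma adjusted p = 0.00439). MEIS2, a homeobox cofactor of HOX proteins, was at 3.62 and 0.989 FPKM in female naive and 11.3 and 9.10 FPKM in male naive lines, against 76.0 and 50.7 FPKM in primed lines (log2 difference -3.44, SE 0.36, limma adjusted p = 0.00966).

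HOXB1, a HOX gene with well-studied retinoic acid response elements, was at 0.101 FPKM in female naive 1, listed at 0 in female naive 2 and at 7.55 and 3.37 FPKM in male naive lines, against 27.4 and 15.2 FPKM in primed lines (log2 difference -3.08, SE 0.36). TSHZ1, a zinc finger factor, fell by 1.92 and HOXA3 by 2.32. RARRES2, which encodes the secreted protein chemerin, went the other way, at 61.5 and 66.6 FPKM in female naive and 53.4 and 35.5 FPKM in male naive lines, against 18.2 and 18.5 FPKM in primed lines (log2 difference 1.48, SE 0.18, limma adjusted p = 0.0103). TGM2, a transglutaminase, also rose (1.29). Abundant genes of the list that were not called included GBX2, a midbrain-hindbrain factor (log2 difference 0.31), and CDX1, a caudal homeobox factor (0.59). CDX1 was at 1.21 and 1.72 FPKM in female naive and 30.9 and 42.4 FPKM in male naive lines, against 26.5 and 0.462 FPKM in primed lines, so that its difference was 2.71 without primed 1 and -1.53 without primed 2.

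The 10 calls of this list became 4 without male naive 1, 4 without male naive 2, 4 without female naive 1, 3 without female naive 2 and 2 without primed 1, and 2 with male naive against primed lines alone. HOXA2 was called in all 16 alternatives, and MEIS2 in 14. PAX6, which the list shares with the neural markers, was not called (log2 difference -1.88, limma adjusted p = 0.0602). NRIP1 and CYP26B1 stand in both the retinoid and the responsive list. The median of all tested rows, 0.035, was -0.068 after upper-quartile scaling, under which limma called 12 of the 21. MEIS1, among the lower ones, reached 1 FPKM only in primed libraries.

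In female against male naive lines, 3 of the 21 responsive genes fell, where limma called 2.55% of all rows lower. A negative difference was found for 19 of the 21 (median -0.94, against -0.104 over all rows). The share of all rows with a negative difference was not counted. Both female libraries lay below both male libraries for 15 of the 21 and 37.6% of all rows. They lay above for 2 of the 21 and 19.4% of all rows. With all 6 libraries, 11 of the 21 and 2963 of all 13685 tested rows had an unadjusted limma p under 0.05. HOXB1, whose values are given above, was among them (log2 difference -2.54, SE 0.41, limma adjusted p = 0.0353), and both female libraries lay below both male libraries. Of 9 tested neural markers, whose sums are lower in female naive lines, 2 also fell in this comparison, MAP2 and TUBB3, and of 14 tested fibroblast and feeder markers 2 fell, VIM and ACTA2. Without female naive 1, female naive 2, male naive 1 or male naive 2 limma called none of the 21, with 6 to 9 at an unadjusted p under 0.05. Without primed 1 it called 5 and without primed 2 it called 6, adding CDX1 and NEDD9 in both cases and NRIP1 in the second.

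**Figure D4:**
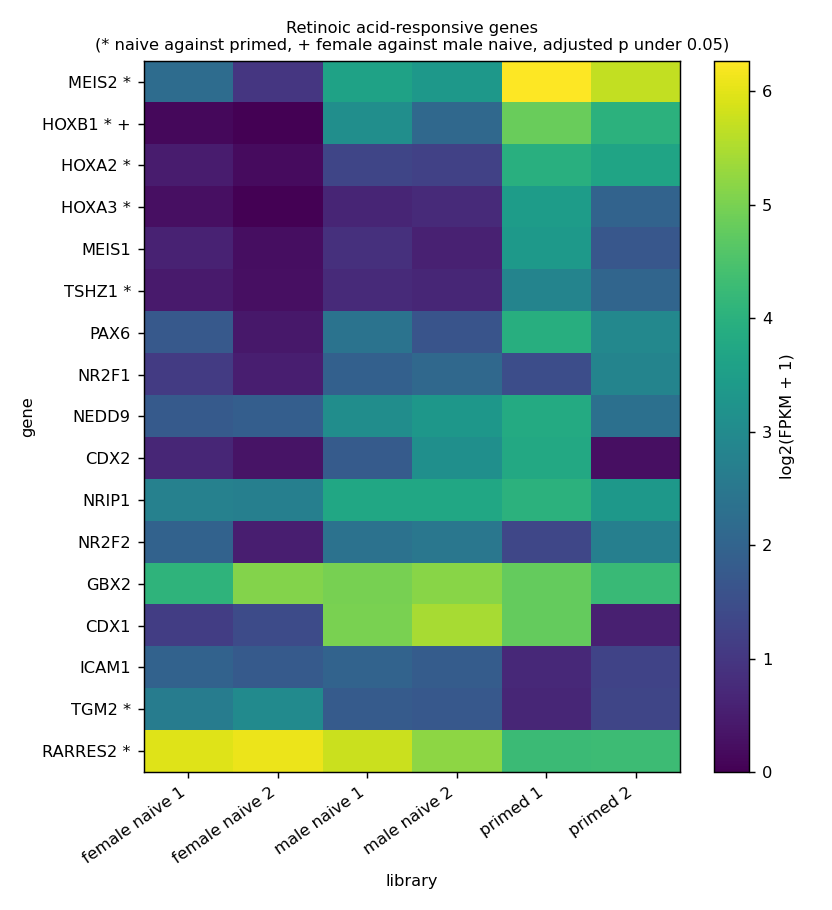
Levels of 17 tested retinoic acid-responsive genes as log2(FPKM + 1) in each library, ordered by the difference between naive and primed lines. Genes with * were called in naive against primed lines (5 lower and 2 higher among those shown), and HOXB1, with +, also in female against male naive lines.

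The genes whose pattern over the 6 libraries was most like that of CRABP1 included 3 of these responsive genes. Likeness was the mean absolute difference between log2(FPKM + 1) values centred on each gene's own mean, over 12105 other tested rows with a symbol, and it is a description of these 6 libraries. The 5 nearest rows were HOXA2 (0.547), MEIS2 (0.614), HOXB1 (0.623), CNTFR, a cytokine receptor (0.647), and RGMB, a BMP co-receptor (0.686). CNTFR was at 8.69 and 6.12 FPKM in female naive and 23.6 and 24.5 FPKM in male naive lines, against 97.4 and 78.7 FPKM in primed lines. Of the other members RARB stood at rank 45 (0.969) and CRABP2 at rank 286 (1.327), while RARG, DHRS3 and CYP26A1 stood at ranks 11404, 11707 and 11787.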

How the data were processed

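RNA sequencing of 6 iPSC libraries was analysed, grouped by sample title. TopHat 1.3.0 is named in the submitters' processing notes; for the genome build, annotation release and quantifier version, a statement is not given in the sources used here. The authors deposited FPKM for each library, with error bounds and a status flag for each row, per the file headers. Starts were raised by 1 to count from 1. Effective fragments, (2 × FPKM / (upper bound − FPKM)) squared, cover counting error only.

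The filter kept 13685 rows that reached 1 FPKM in 2 or more libraries, and 40 rows were dropped for their status. Differences in log2(FPKM + 1) came from limma 3.58.1 (R 4.3.3), using group means, 3 residual degrees of freedom and trend moderation. The procedure was tested on simulated data in which all genes and groups had the same spread beyond counting error. That test does not cover genes that differ widely between libraries of a group. Tests are two-sided, adjusted over all tested rows, and called at an adjusted p under 0.05. Fold changes on this scale understate low genes. With no donors named, p-values reflect only line-to-line spread, part of which may be technical.

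Symbols came from the files, and 728 rows were named only by a table of gene IDs. Where rows shared a symbol, the one with the highest mean was used. The members and lists were chosen with earlier results of these data known. Genes named were the 9 members, up to 6 called genes with the smallest p and 3 uncalled genes with the highest mean per list and comparison, POU5F1, NANOG, SOX2 and the 5 rows most like CRABP1; TGM2, ALDH1A1, ALDH1A3, CYP26B1, MEIS1, NEDD9, NRIP1, PAX6 and marker genes were added after their values were seen. Some genes that this rule names are not reported here, but stay in the counts. Alternatives were another pseudocount (0.1), no filter, 2 scalings, a replicate block, no trend, fits to the compared groups, rows summed per symbol and leaving out each library or naive sex.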

Additional observations from a re-analysis of the deposited data

Results flagged for a closer look

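Among the 25 named genes tested for a naive library far from the other 3, 2 stood out, both for female naive 1, and chance alone gives about 1 in 20 such groups. RARG was at 16.4 FPKM there, against 19.9 to 20.4 FPKM in the other naive libraries, a gap of 0.889 of the range of log2(FPKM + 1). GBX2 was at 15.9 FPKM there, against 30.7 to 34.8 FPKM in the others, a gap of 0.837 of the range.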

How the results depend on the processing

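Counts of calls depended on the settings more than the differences did. Naive against primed, limma called 1548 rows, 920 higher and 628 lower (684 and 930 with upper-quartile scaling), 941 with no filter, 812 with the replicate block, 250 with sex ignored, 625 without male naive and 348 without female naive libraries, and 177 to 1081 with 1 library left out. Other retinoid genes called (3) became 0 with sex ignored or without female naive libraries (8 and 3 at an unadjusted p under 0.05) and 0 to 2 with 1 library left out. Responsive genes called (10) became 5 with no filter, 3 with sex ignored, 2 without female naive libraries and 2 to 13 with 1 library left out. In female against male naive lines limma called 453 rows, 104 higher and 349 lower (111 and 212 with upper-quartile, 114 and 219 with median-of-ratios scaling), 268 with no filter, 207 with the replicate block and 41 to 523 with 1 library left out. Members called (2) became 0 with no filter and with either scaling (4 at an unadjusted p under 0.05), 1 with the replicate block (CRABP1), 1 without trend (DHRS3), 1 in naive libraries alone (CRABP2) and 0 to 2 with 1 library left out. Other retinoid genes called (1) became 0 to 2, and responsive genes called (3) became 5 in naive libraries alone and 0 to 6 with 1 library left out. A library left alone in its group was assumed to vary like the others.

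In naive against primed lines, signs changed for RARA with upper-quartile scaling (-0.01), without female naive 2 (-0.02), primed 2 (-0.15; 0.35 without primed 1) and male naive libraries (-0.10), for CYP26A1 without primed 1 (-0.36; 1.93 without primed 2) and female naive libraries (-0.38) and for CDX1 without primed 2 (-1.53; 2.71 without primed 1) and male naive libraries (-1.37). NCOR1, near 0, also changed sign, and in female against male naive lines so did RARB, RARG, RXRA, FABP5, GBX2 and NCOR1, none of them called under any alternative. The cause was not tested. CRABP1, CRABP2, RARB, RARG, RXRA and DHRS3 kept their naive against primed sign in all 16 alternatives. Same-numbered libraries showed no shared positive deviation (correlations of -0.06, -0.05 and -0.263). With donors not given, this cannot show whether any of the lines are paired by origin. HOXA2, HOXA3, HOXB1, TSHZ1 and RARB rest on 20 or fewer effective fragments in each naive library, and DHRS3 on 11 and 9 in male naive libraries.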
